A study of Mus musculus with 8 samples.

Results

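The 8 genes described here are Ptgs1, Ptgs2, Ptgis, Ptges, Slco2a1, Hpgd and Ptger4, which make, carry, inactivate or sense prostanoids, and Alox5ap of the related leukotriene pathway. They were taken by symbol from the feature list of the second run of the study and matched to the first run by gene identifier. All 8 were found, among 30406 genes that both feature lists hold. Their summed counts over all 27944 barcodes ranged from 1143 (Ptges) to 16427 (Slco2a1).

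The study sequenced single YFP-positive cells sorted from mesentery or epididymal adipose tissue of mice on 2 diets. All mice were male ROSA26-eYFP+/+ Cdh5-CreERT2+ animals, in which Cre driven by the endothelial Cdh5 promoter switches on YFP after tamoxifen, and all were fed tamoxifen for 2 weeks, starting when they were 6 weeks old. At 8 weeks they went on to normal chow (NC, 5.8% fat) or a high fat diet (HFD, 60% fat), kept up for 12 to 13 weeks. The 4 groups were mesentery on chow, mesentery on high fat diet, adipose on chow and adipose on high fat diet. Each group had 2 libraries, 1 from run A and 1 from run B, and each library pooled the tissue of 6 mice. The p-values below therefore measure the spread between pools, not between single mice.

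Prostanoids are short-lived lipid signals made from arachidonic acid, which phospholipases A2 release from membranes. The cyclooxygenases COX-1 (Ptgs1) and COX-2 (Ptgs2) turn it into prostaglandin H2, and terminal synthases such as prostacyclin synthase (Ptgis) and microsomal prostaglandin E synthase (Ptges) make the final products. The transporter encoded by Slco2a1 carries prostaglandins into cells, 15-hydroxyprostaglandin dehydrogenase (Hpgd) inactivates them, and Ptger4 encodes the EP4 receptor for prostaglandin E2. Alox5ap encodes FLAP, which presents arachidonic acid to 5-lipoxygenase in the parallel leukotriene pathway. In blood vessels, endothelial prostacyclin is known for relaxing smooth muscle and restraining platelets.

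Total UMIs were 3461360 to 6714473 per library in run A and 18829960 to 36779289 in run B, so levels of run B rest on more counts. The mitochondrial limit of 10% removed more barcodes in run A (20.1 to 29.9% per library) than in run B (5.2 to 8.2%). After all filters 23113 cells remained, 18404 of them in endothelial clusters. Any 2 libraries shared 0 to 10 barcodes. Cells were clustered without the 8 genes and 46 other genes of prostanoid and leukotriene biology, so that these genes did not set the classes. Clusters were named arterial-like, capillary-like, venous-like or lymphatic-like from vessel markers, and the endothelial adhesion molecule Pecam1 was 414 to 2167 CPM (counts per 1000000 UMIs of the cell set) in these 4 classes in all libraries. Clusters whose leading genes went against a class kept their number. Where 2 values are given for a group, the first is run A and the second run B. Adipocyte markers marked the chow libraries of run B: their summed level in capillary-like cells was 3536 CPM in mesentery and 4136 CPM in adipose there, against 135 to 410.4 CPM in the other 6 libraries.

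The start-site regions of Ptgs1, Slco2a1 and Ptger4 are printed because these 3 genes carry the differences between vessel classes, tissues and diets described below. Each runs from 250 bases before to 50 bases after the RefSeq start, 5′ to 3′ on the gene's strand, on build GRCm38.p6, and 6 of the 8 genes had an entry. The windows are chr2:36230176-36230475 (plus strand), chr9:103008237-103008536 (plus strand) and chr15:5244138-5244437 (minus strand). Capitals mark 4 short motifs searched on both strands. They are TATAAA for the TATA box, the CACCC box of Krüppel-like factors, the CCAAT box, and TGACGTCA for the cyclic AMP response element, and none overlaps another.
Ptgs1: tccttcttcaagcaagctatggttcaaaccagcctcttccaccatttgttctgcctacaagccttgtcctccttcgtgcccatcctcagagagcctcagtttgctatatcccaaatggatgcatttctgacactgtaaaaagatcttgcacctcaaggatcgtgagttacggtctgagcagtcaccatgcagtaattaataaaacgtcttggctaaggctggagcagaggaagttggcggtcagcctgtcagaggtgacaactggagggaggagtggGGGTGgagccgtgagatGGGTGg
Slco2a1: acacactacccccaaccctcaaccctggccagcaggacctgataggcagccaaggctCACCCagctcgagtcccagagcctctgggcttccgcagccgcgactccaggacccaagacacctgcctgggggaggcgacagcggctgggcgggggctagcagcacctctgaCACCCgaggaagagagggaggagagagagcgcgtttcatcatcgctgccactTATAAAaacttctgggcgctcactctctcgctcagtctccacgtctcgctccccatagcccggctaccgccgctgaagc
Ptger4: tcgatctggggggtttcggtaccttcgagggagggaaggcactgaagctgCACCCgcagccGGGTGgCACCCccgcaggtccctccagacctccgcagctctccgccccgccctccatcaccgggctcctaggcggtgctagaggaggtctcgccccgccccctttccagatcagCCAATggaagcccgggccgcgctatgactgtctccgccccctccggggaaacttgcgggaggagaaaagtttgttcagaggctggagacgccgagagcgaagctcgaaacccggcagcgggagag
Slco2a1 held TATAAA at bases 222 to 227, which 13.6% of 32851 mouse promoters of that length also hold. It held CACCC at bases 58 to 62 and 170 to 174. Ptgs1 had CACCC on the opposite strand, read as GGGTG, at bases 278 to 282 and 295 to 299. Ptger4 had CACCC at bases 51 to 55 and 68 to 72, GGGTG at 62 to 66, and CCAAT at 176 to 180. CACCC occurred in 57.5% and CCAAT in 37.4% of all promoters, and TGACGTCA, which none of the 3 windows held, in 1.79%. These matches describe letters and were not tested as binding sites.

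Ptgs1, the constitutive cyclooxygenase, was a gene of the venous side of the vasculature. The gene lies at chr2:36230426-36252272 on the plus strand (GENCODE vM21, mm10) and overlaps Gm43621. In venous-like cells its level was 237 and 289.6 in mesentery on chow, 254 and 243 in mesentery on high fat diet, 361 and 311 in adipose on chow and 327 and 243 in adipose on high fat diet (CPM). The mean over the 8 libraries was 283 CPM ± 46.3 (SD, n = 8 libraries), the lowest venous-like library (237 CPM) lying above the highest library of every other vessel class. The mean was 38.0 CPM ± 43.2 (SD, n = 8) in capillary-like, 25.2 CPM ± 19.5 (SD, n = 8) in lymphatic-like and 21.6 CPM ± 16.0 (SD, n = 8) in arterial-like cells. The ranges of those 3 classes overlapped.

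Within the venous-like class, both large clusters carried Ptgs1. Cluster 7, led by Plac8, Adgrg6, Selp and Vwf, held 262 and 375 in mesentery on chow, 375 and 275 in mesentery on high fat diet, 541 in adipose on chow (run B only) and 309 in adipose on high fat diet (run B only) (CPM). Cluster 6, led by Ackr1 and Cysltr1, held 241 and 235 in mesentery on chow, 298 and 244 in mesentery on high fat diet, 367 and 287 in adipose on chow and 326 and 244 in adipose on high fat diet (CPM), below cluster 7 in 6 of the 6 libraries with both. Cluster 15 was found in adipose tissue alone and had Ptn and Slco1a4 among its leading genes. It raised 9 of 12 venous markers but stayed unnamed, since the fibroblast marker Dcn was also among its leading genes. Its Ptgs1 level was 299 and 419.8 in adipose on chow and 364 and 399.5 in adipose on high fat diet (CPM), with 1 library inside and 3 above the range of the venous-like class.

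Venous-like Ptgs1 was lower in mesentery than in adipose tissue in 4 of 4 comparisons within a run and diet, which held for 7.9% of all genes compared in that class. In run B on high fat diet the levels differed by less than 1 CPM. No test called it. The class was made of different clusters in the 2 tissues: cluster 7 was 80.7% and 69.3% of venous-like cells in mesentery on chow but 6.73% and 12.1% in adipose on chow. The part of this makeup in the Ptgs1 level was not tested.

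Outside the named vessel classes, Ptgs1 was measured at an intermediate level in cluster 17. These 462 cells were led by Klk10, Pi16, Mgp and Mfap5, raised 9 of 12 arterial markers and held 2572 to 4387 CPM of Pecam1. They stayed unnamed because the fibroblast markers Pi16 and Mfap5 were among their leading genes, while the fibroblast marker Dcn was only 0 to 101.5 CPM. Their Ptgs1 level was 100.0 and 101 in mesentery on chow, 141 and 121 in mesentery on high fat diet and 219.9 and 119 in adipose on chow (CPM), every library lying above the same library's arterial-like cells.

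**Figure D1:**
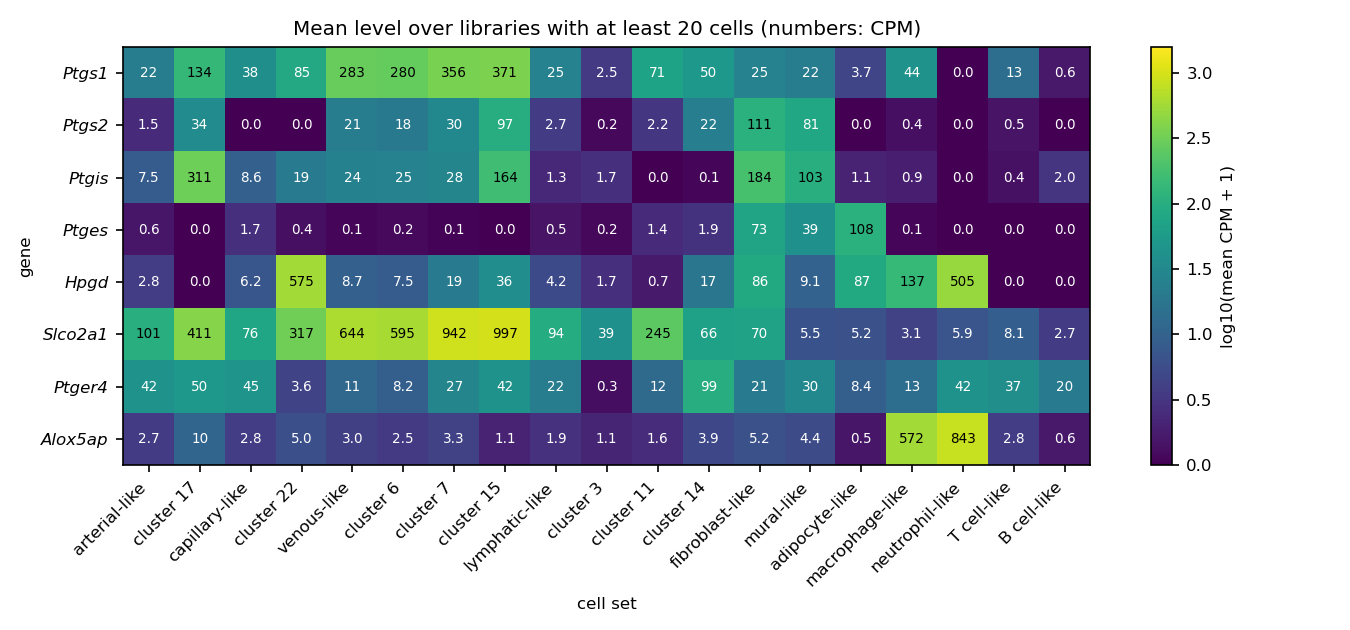
Heat map of the mean level of each of the 8 genes (rows) in each cell class and in the clusters discussed (columns); the number in a cell is the mean CPM over libraries with at least 20 cells and the colour is log10(mean CPM + 1). Ptgs1 and Slco2a1 are highest among the vessel classes in venous-like cells (means of 283 and 644 CPM), Ptger4 in capillary-like and arterial-like cells, and Alox5ap in macrophage-like and neutrophil-like cells.

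Ptgs2, the inducible cyclooxygenase, was not detected in capillary-like cells. All 8 libraries were at 0, which over their 29291657 UMIs allows a level of up to 0.102 CPM. It lies at chr1:150100031-150108227 on the plus strand. Venous-like cells held 89.05 and 9.02 in mesentery on chow, 19.9 and 5.22 in mesentery on high fat diet, 38.3 and 0 in adipose on chow and 8.6 and 0 in adipose on high fat diet (CPM), from 325 counts in all. Run A was above run B in 4 of 4 groups, so the level followed the run as well as the class. Of all genes compared in this class, 13.4% were higher and 31.9% lower in run A in 4 of 4 groups. Actinomycin D, an inhibitor of transcription, was present during tissue dissection and digestion in this study, per the labels' protocols.

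Ptgs2 was also measured in both endothelial clusters introduced above without a class name. Cluster 15 held 239 and 57.4 in adipose on chow and 71.6 and 21.9 in adipose on high fat diet (CPM), and cluster 17 held 12.1 and 20.7 in mesentery on chow, 0 and 63.2 in mesentery on high fat diet and 33.8 and 72.7 in adipose on chow (CPM). In cluster 15 both runs were lower on high fat diet, by a log2 difference of −1.65 ± 0.33 (SE) with edgeR's quasi-likelihood test and the run as a block, adjusted p = 0.153 (0.0% of genes called). Among other cells, fibroblast-like cells held 122 and 7.13 in mesentery on chow, 84.9 and 0 in mesentery on high fat diet, 426 and 29.3 in adipose on chow and 206 and 13.6 in adipose on high fat diet (CPM), again higher in run A in every group. Arterial-like cells held 3 and lymphatic-like cells 29 UMIs of Ptgs2 over all libraries.

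**Figure D2:**
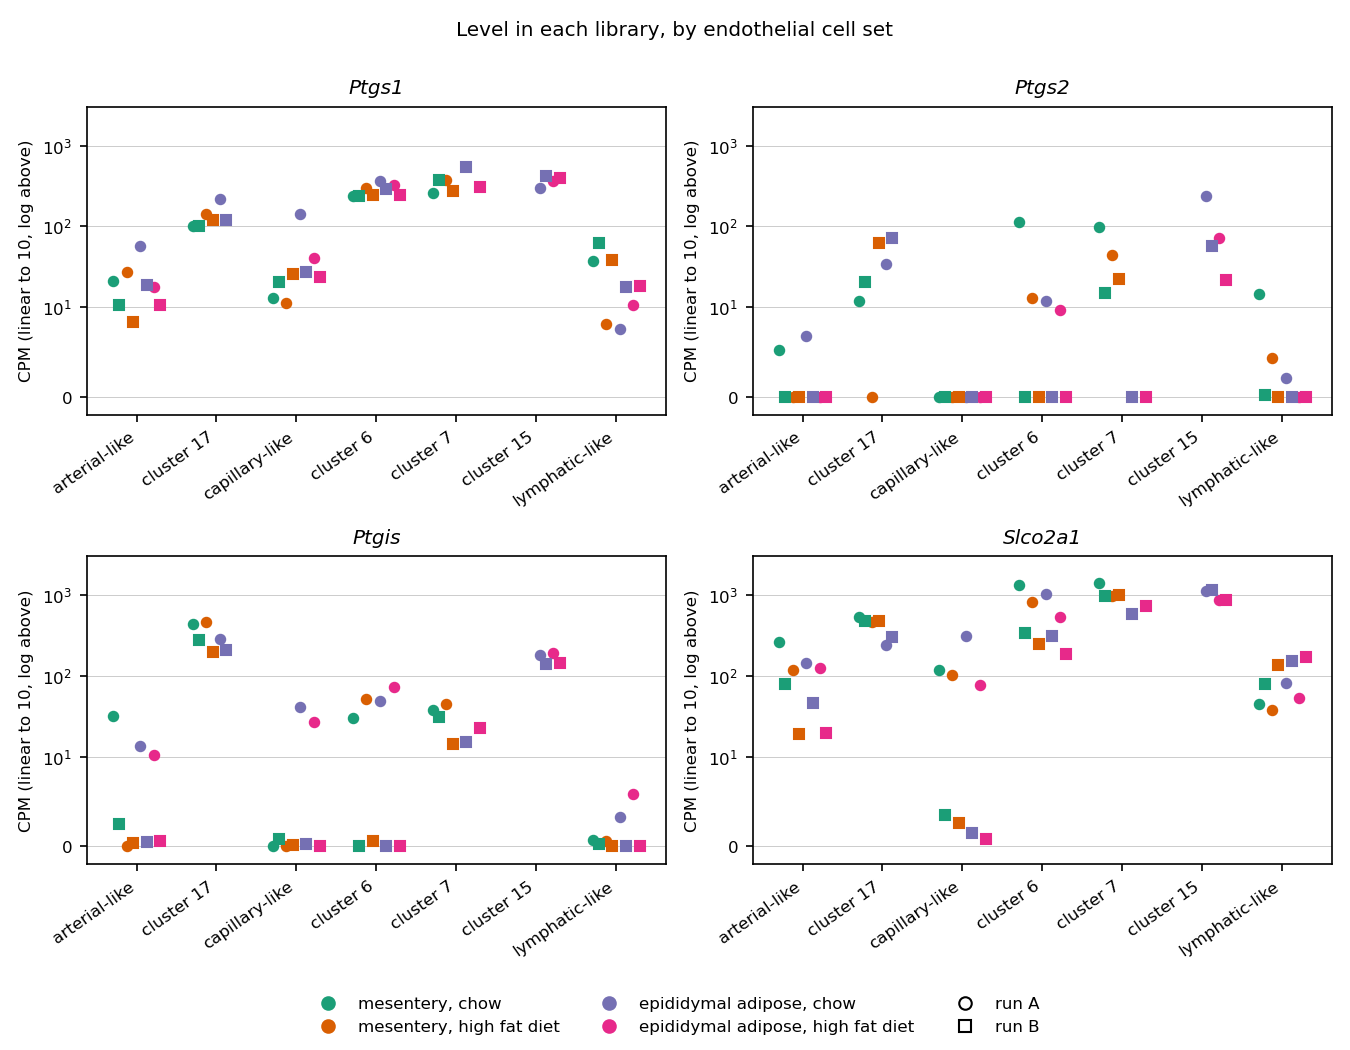
Level of Ptgs1, Ptgs2, Ptgis and Slco2a1 (one panel each) in every library of 7 cell sets; the y axis is CPM, linear up to 10 and logarithmic above, the colour is the group, circles are run A and squares run B. Ptgs1 sits highest in clusters 6, 7 and 15 in both runs, Slco2a1 sits highest in cluster 7 or 15 within each library, Ptgis sits highest in cluster 17, and Ptgs2 is at 0 in every capillary-like library.

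Ptgis, which makes prostacyclin, was concentrated in cluster 17 among endothelial cells. It lies at chr2:167191805-167240604 on the minus strand and overlaps 1110018N20Rik and Gm14291. Cluster 17 held 441 and 274 in mesentery on chow, 461 and 195 in mesentery on high fat diet and 288 and 208 in adipose on chow (CPM), with adipose on high fat diet left out because it had under 20 such cells. Arterial-like cells, with which this cluster shared most arterial markers, held 31.6 and 2.48 in mesentery on chow, 0 and 0.36 in mesentery on high fat diet, 13.6 and 0.5 in adipose on chow and 10.5 and 0.63 in adipose on high fat diet (CPM). Each of the 6 libraries of cluster 17 lay above all 8 arterial-like libraries.

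Cluster 15 was the other endothelial cluster with high Ptgis, at 178 and 139.9 in adipose on chow and 192 and 145 in adipose on high fat diet (CPM). Venous-like cells held 32.2 and 18.8 in mesentery on chow, 27.4 and 3.8 in mesentery on high fat diet, 43.8 and 1.46 in adipose on chow and 64.5 and 1.56 in adipose on high fat diet (CPM), with adipose tissue at 43.8 and 64.5 in run A and at 1.46 and 1.56 in run B. Capillary-like cells held 18 and lymphatic-like cells 11 UMIs in all. Fibroblast-like cells held 22.2 and 45.9 in mesentery on chow, 100.3 and 174 in mesentery on high fat diet, 392 and 214 in adipose on chow and 375 and 145 in adipose on high fat diet (CPM). The summed fibroblast markers in venous-like cells moved alike: 301 and 249 CPM in adipose libraries of run A, against 17.1 to 57.4 CPM in the other 6 libraries, and their part in the venous-like Ptgis level was not tested. In clusters 17 and 15, where Ptgis was high in both runs, those markers summed to 265 to 649.5 CPM and 250.2 to 581 CPM, with 1 to 7 of the 10 markers at 0 in each library.

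Ptges, the inducible prostaglandin E synthase, was at or near 0 in the vessel classes. It lies at chr2:30889471-30929863 on the minus strand and overlaps Gm13400. Venous-like cells held 3, lymphatic-like cells 8 and arterial-like cells 13 UMIs of Ptges over all libraries. Capillary-like cells held 0 and 8.44 in mesentery on chow, 0 and 0.19 in mesentery on high fat diet, 0 and 4.78 in adipose on chow and 0 and 0.16 in adipose on high fat diet (CPM). Both libraries above 1 CPM were the chow libraries of run B, whose summed adipocyte markers were the highest in this class, and the part of those markers in this level was not tested.

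The level of Ptges was highest in cells that were not endothelial. Adipocyte-like cells, present in the chow libraries of run B only, held 123 in mesentery on chow (run B only) and 93.2 in adipose on chow (run B only) (CPM). Fibroblast-like cells held 38.9 and 76.4 in mesentery on chow, 38.6 and 72.6 in mesentery on high fat diet, 86.1 and 56.3 in adipose on chow and 123 and 91.9 in adipose on high fat diet (CPM). Mural-like cells, with 6 libraries, split by run. They held 66.6 CPM in adipose on chow and 113 CPM in adipose on high fat diet of run A, and 9.59 to 20.6 CPM in run B. All 8 fibroblast-like libraries lay above every library of the 4 vessel classes.

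Slco2a1, the prostaglandin uptake transporter, was the member with the most counts and, like Ptgs1, marked the venous side. The gene lies at chr9:102988712-103096002 on the plus strand and overlaps Gm22595, Gm25842, Gm47468 and n-R5s89. Venous-like cells held 1259 and 713 in mesentery on chow, 668 and 423 in mesentery on high fat diet, 1002 and 337 in adipose on chow and 533 and 220.4 in adipose on high fat diet (CPM), with a mean of 644 CPM ± 348 (SD, n = 8 libraries). In each of the 8 libraries that level was above the arterial-like, capillary-like and lymphatic-like levels of the same library. Run A lay above run B in each group, as for 13.4% of all genes compared in this class, so the order of the classes is given within libraries.

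Cluster 7 held the higher Slco2a1 level of the venous-like clusters, at 1405 and 956 in mesentery on chow, 974 and 1000.4 in mesentery on high fat diet, 587 in adipose on chow (run B only) and 730.0 in adipose on high fat diet (run B only) (CPM). Cluster 6 held 1305 and 337 in mesentery on chow, 816 and 248 in mesentery on high fat diet, 1029.6 and 311 in adipose on chow and 529.6 and 185 in adipose on high fat diet (CPM), below cluster 7 in 6 of 6 libraries. The unnamed cluster 15 of adipose tissue reached the level of cluster 7, at 1116 and 1156 in adipose on chow and 862 and 856 in adipose on high fat diet (CPM). Cluster 17 held 524 and 476 in mesentery on chow, 461 and 469 in mesentery on high fat diet and 237 and 301 in adipose on chow (CPM), above the arterial-like level in 6 of 6 libraries.

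Venous-like Slco2a1 was lower on high fat diet than on chow in 4 of 4 pairs of the same run and tissue, a pattern that 9.46% of all genes compared in this class also had. It was higher in mesentery than in adipose tissue in 4 of 4 pairs, as were 10.7% of all genes. With the run as a block, the diet difference was −0.80 ± 0.25 (log2, SE) in mesentery, adjusted p = 0.35 in edgeR, and −0.72 ± 0.26 in adipose, adjusted p = 1.0. The share of cluster 7 among venous-like cells was lower on high fat diet in mesentery too, at 50.6% and 22.1% against 80.7% and 69.3% on chow. Within cluster 7 the mesentery levels were 1405 and 956 CPM on chow and 974 and 1000.4 CPM on high fat diet, which overlap. Within cluster 6 the levels were 1305 and 337 in mesentery on chow, 816 and 248 in mesentery on high fat diet, 1029.6 and 311 in adipose on chow and 529.6 and 185 in adipose on high fat diet (CPM), lower on high fat diet in 4 of 4 pairs.

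In capillary-like cells the Slco2a1 level differed more between the runs than between the groups. The values were 117 and 3.49 in mesentery on chow, 101 and 2.61 in mesentery on high fat diet, 305 and 1.45 in adipose on chow and 76.1 and 0.81 in adipose on high fat diet (CPM), from 116 counts in all, with every run A library above every run B library. Of all genes compared in this class, 12.3% were higher in run A in each group. Lymphatic-like cells held 44.2 and 77.8 in mesentery on chow, 37.6 and 135 in mesentery on high fat diet, 80.7 and 152 in adipose on chow and 52.9 and 172 in adipose on high fat diet (CPM), and there run B was the higher run in each group, as for 25.8% of all genes compared in that class.

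Hpgd, which inactivates prostaglandins, was low in the named vessel classes and higher in macrophage-like and fibroblast-like cells. It lies at chr8:56294585-56321043 on the plus strand and overlaps Gm45540. Venous-like cells held 17.1 and 21.9 in mesentery on chow, 4.99 and 6.65 in mesentery on high fat diet, 10.9 and 7.29 in adipose on chow and 0 and 0.52 in adipose on high fat diet (CPM), lower on high fat diet in 4 of 4 pairs, as were 9.46% of all genes compared, with blocked differences of −1.69 ± 0.49 in mesentery and −3.82 ± 1.03 in adipose (log2, SE; edgeR adjusted p = 0.281 and 0.792). Of the 50 and 90 UMIs in venous-like cells of mesentery on chow, 44 and 87 were in cluster 7, whose lower share on high fat diet is given above. Within cluster 7 the level was also lower on high fat diet, at 6.36 and 14.4 CPM in mesentery against 19.3 and 35.8 CPM on chow. In adipose tissue of run B it was 0 CPM against 38.1 CPM. These high fat diet levels rest on 0 to 7 UMIs. In cluster 6 of mesentery it was 22.6 and 3.34 CPM on chow and 12.9 and 4.55 CPM on high fat diet. The part of the makeup was not tested. Macrophage-like cells held 94.1 in mesentery on chow (run B only), 192 in mesentery on high fat diet (run B only), 60.02 in adipose on chow (run B only) and 201 in adipose on high fat diet (run B only) (CPM), and the single library with enough neutrophil-like cells held 505 CPM. Fibroblast-like cells held 0 and 23.4 in mesentery on chow, 30.9 and 232 in mesentery on high fat diet, 47.7 and 162 in adipose on chow and 64.3 and 131 in adipose on high fat diet (CPM), with 4 of 8 libraries in or above the range of macrophage-like cells. Adipocyte-like cells held 82.7 in mesentery on chow (run B only) and 92.2 in adipose on chow (run B only) (CPM).

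An endothelial exception was cluster 22, 294 cells led by Col13a1, Esm1, Scgb3a1 and Hpgd itself, with the gene left out of the clustering. In adipose on chow of run B, 37 cells of this cluster held 346 UMIs of Hpgd, a level of 1724 CPM. There 13 of 37 cells (35.1%, exact 95% interval 20.2 to 52.5%) had at least 1 UMI, 12 cells had 10 or more and the highest had 54. In mesentery on chow of the same run, 1 of 195 cells (0.513%, interval 0.013 to 2.82%) had a UMI at a similar median depth, 3964 against 4618 UMIs per cell. The remaining library with enough cells, adipose on chow of run A, had 0 of 24 at a median of 1644 UMIs, which allows a share of cells with a UMI of up to 12.5% by a floor of 3 counts and says nothing of cells that express the gene below this depth. These intervals cover counting error only.

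Among other endothelial cells of that adipose library, 0 of 168 lymphatic-like cells had a UMI, which by the same floor allows a share of cells with a UMI of up to 1.79%, 4 of 241 cells of cluster 8 (1.66%, median depth 4867 UMIs) had one, and 27 of 182 cells of cluster 15 (14.8%, 5421 UMIs) did. In mesentery on chow of run B, 43 of 726 lymphatic-like cells (5.92%, interval 4.32 to 7.9%) and 0 of 265 cells of cluster 8 had one. Summed adipocyte markers in cluster 22 were 845 CPM in the mesentery library and 493 CPM in the adipose library of run B; their part in the Hpgd level was not tested. Adipose run A, at lower depth, had no UMI of the gene. With 1 mesentery library and 1 UMI there, the count ratio of adipose to mesentery on chow was 1330 (95% counting interval 237 to 52600). In a fit of these 3 libraries edgeR called Hpgd lower in mesentery (adjusted p = 2.04e-06; 0.9% of 4776 genes called), while adjusted p was 1.0 in edgeR with other size factors, 1.0 in DESeq2 and 0.585 in limma-voom, and the adipose level rests on the run B library.

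Arterial-like cells held 66 UMIs of Hpgd in adipose on chow and 0 in mesentery on chow, at least 9.26-fold higher by a floor of 3 counts over the group. The levels in all libraries were 0 and 0 in mesentery on chow, 0 and 0.36 in mesentery on high fat diet, 3.4 and 16.3 in adipose on chow and 0 and 2.21 in adipose on high fat diet (CPM), so 1 library held most of the counts. That library, adipose on chow of run B, also had the highest summed adipocyte markers in arterial-like cells, 1922 CPM against 37.4 to 719.9 CPM elsewhere, and their part in the Hpgd level was not tested. In cluster 15 Hpgd was 23.5 and 101 in adipose on chow and 6.51 and 13.2 in adipose on high fat diet (CPM), where the adipocyte markers summed to 16.8 to 105 CPM. In adipose on chow of run B, 1 cell of cluster 15 held 66 of its 113 Hpgd UMIs.

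Ptger4, the EP4 receptor, was ordered differently from Ptgs1 and Slco2a1. It lies at chr15:5206661-5244187 on the minus strand and overlaps Gm15937 and Ttc33. Capillary-like cells held 26.1 and 46.9 in mesentery on chow, 22.5 and 60.6 in mesentery on high fat diet, 30.6 and 53.8 in adipose on chow and 62.7 and 54.6 in adipose on high fat diet (CPM), a mean of 44.7 CPM ± 16.0 (SD, n = 8 libraries). Arterial-like cells held 58.03 and 12.4 in mesentery on chow, 43.3 and 32.4 in mesentery on high fat diet, 47.6 and 32.9 in adipose on chow and 73.8 and 36.6 in adipose on high fat diet (CPM), a mean of 42.1 CPM ± 18.4 (SD, n = 8). The means of the 2 classes did not differ beyond their spread, but their order turned with the run. Arterial-like cells lay above capillary-like cells in every group of run A and below them in every group of run B. The run A levels of capillary-like cells rest on 2 to 14 UMIs per library.

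Venous-like cells held the receptor at 6.16 and 8.29 in mesentery on chow, 4.99 and 13.8 in mesentery on high fat diet, 5.48 and 16.8 in adipose on chow and 12.9 and 20.8 in adipose on high fat diet (CPM). They lay below both arterial-like and capillary-like cells in 8 of 8 libraries. T cell-like cells, with 7 libraries, held 27.3 to 98.2 CPM in run A and 6.96 to 15.3 CPM in run B, from 1 to 10 UMIs per library. Lymphatic-like cells held 47.99 and 95.98 in mesentery on chow, 6.9 and 15.8 in mesentery on high fat diet, 0 and 3.83 in adipose on chow and 0 and 3.46 in adipose on high fat diet (CPM), below venous-like cells in the 4 adipose libraries.

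Alox5ap was highest in myeloid cells in these libraries. It lies at chr5:149264767-149288153 on the plus strand and overlaps Gm19719 and n-R5s180. Macrophage-like cells, found in sufficient number in the run B libraries, held 634 in mesentery on chow (run B only), 553 in mesentery on high fat diet (run B only), 508 in adipose on chow (run B only) and 591 in adipose on high fat diet (run B only) (CPM). The library with enough neutrophil-like cells held 843 CPM. The 4 vessel classes held 0 to 10.6 CPM in all libraries, from 50 UMIs in capillary-like, 22 in lymphatic-like, 21 in venous-like and 15 in arterial-like cells. Cluster 27, an endothelial cluster outside these classes with libraries of run B only, held more. Its levels were 33.2 in adipose on chow, 236 in mesentery on high fat diet and 375 in adipose on high fat diet (CPM). In the last of these it held 272 of the 330 endothelial UMIs of the gene. Summed macrophage markers in all endothelial cells of that library were 860 CPM, against 139 to 257 CPM in its 4 named vessel classes. The part of macrophage transcripts in the Alox5ap level of cluster 27 was not tested.

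The effect of diet in mesentery was tested over 5 cell sets: all endothelial cells and the 4 named vessel classes. Of the members, 8 passed the filter on low counts in all endothelial cells, 6 in venous-like, 5 in capillary-like, 4 in arterial-like and 3 in lymphatic-like cells, giving 26 tests. The 4 classes are part of all endothelial cells, so the 26 tests are not independent. With edgeR's quasi-likelihood test (adjusted p under 0.05 over all genes) none of the members was called, and 0.0% of all genes were called in each set. Unadjusted p was under 0.05 in 2 of the 26 tests. Over all genes it was so for 269 of 13408 (all endothelial), 51 of 9037 (arterial-like), 68 of 10279 (capillary-like), 145 of 10129 (venous-like) and 792 of 9151 (lymphatic-like). DESeq2 called 1 member, Ptger4 in lymphatic-like cells, and limma-voom none. Over all genes of that set DESeq2 called 119 and limma-voom 11.

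Samples of the same run moved together in these data, and with the run as a block 3 members were called for diet in mesentery: Slco2a1 in arterial-like cells, where 0.598% of 9037 genes were called, and Ptger4 and Ptgs1 in lymphatic-like cells, where 6.2% of 9151 genes were called. Unadjusted p was under 0.05 in 14 of 26 tests. Over all genes it was so for 1234 of 13408 (all endothelial), 477 of 9037 (arterial-like), 355 of 10279 (capillary-like), 589 of 10129 (venous-like) and 1597 of 9151 (lymphatic-like). The 3 called members were all lower on high fat diet. Of all genes called, 26 of 54 in arterial-like and 362 of 567 in lymphatic-like cells were lower too. These made up 0.288% and 3.96% of all genes tested. In capillary-like and venous-like cells, where no member was called, 0.72% and 0.355% of genes were. In all endothelial cells, where 0.00746% of genes were called and no member was, the median blocked difference of the 8 members was −1.81 (log2) against −0.03 for all 13408 genes. The clusters in that set differed between the diets as well: in mesentery of run A, cluster 7 was 484 of 1284 endothelial cells on chow and 42 of 688 on high fat diet. In mesentery of run B, cluster 9 held 82 of the 122 Ptges UMIs on chow and cluster 27 held 102 of the 117 Alox5ap UMIs on high fat diet. Only the chow libraries of run B had at least 20 cells of cluster 9. Summed adipocyte markers in all endothelial cells were 2927 CPM in mesentery and 5738 CPM in adipose there, against 33.3 to 286 CPM in the other libraries. The part of these markers in the member levels was not tested. Within the named classes the blocked medians of the members tested were −0.92 (arterial-like), −0.28 (capillary-like), −1.08 (venous-like) and −1.29 (lymphatic-like). The part of the makeup in the median of −1.81 was not tested.

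Arterial-like Slco2a1 fell on high fat diet in mesentery in both runs. The levels were 264 and 79.4 in mesentery on chow, 118 and 18.9 in mesentery on high fat diet, 143 and 46.1 in adipose on chow and 123 and 19.6 in adipose on high fat diet (CPM), so high fat diet was the lower diet in 4 of 4 pairs of the same run and tissue, as for 7.43% of all genes compared in this class. In mesentery the summed counts were 178 on chow and 82 on high fat diet, a ratio of 3.61 (95% counting interval 2.77 to 4.76). The blocked difference was −1.70 ± 0.28 (log2, SE; edgeR adjusted p = 0.0014), and −1.41 ± 1.20 without the block (adjusted p = 1.0). Without the run B library of mesentery on chow the blocked value was −1.37 (adjusted p = 0.348), and without that of mesentery on high fat diet −1.31 (adjusted p = 0.295), so the call rests on run B. Without the block the value moved between −0.37, without the run A library of mesentery on chow, and −3.13, without that of mesentery on high fat diet, and no such fit called it. It was −0.46 without the run B library of mesentery on high fat diet.

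The level of Slco2a1 in the other cells of the same libraries differed between the runs. In run A, mesentery capillary-like cells held 117 CPM on chow and 101 CPM on high fat diet, close to the arterial-like 118 CPM on high fat diet. In run B they held 3.49 and 2.61 CPM, below the arterial-like 79.4 and 18.9 CPM. Within the arterial-like class, cluster 8, led by Gkn3, Serpinf1 and Gja5, held 426 and 129 in mesentery on chow, 158 and 40.3 in mesentery on high fat diet, 203 and 133 in adipose on chow and 166 and 69.7 in adipose on high fat diet (CPM). Cluster 5, led by Alox12, Col8a1 and Hey1, held 100.1 and 5.78 in mesentery on chow, 0 and 2.69 in mesentery on high fat diet, 74.8 and 1.2 in adipose on chow and 21.8 and 1.41 in adipose on high fat diet (CPM), below cluster 8 in 8 of 8 libraries.

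The makeup of the arterial-like class differed between runs as well as diets. In mesentery of run A the share of cluster 8 was higher on high fat diet (56.8%) than on chow (42.4%). In run B it was lower, at 36.3% against 59.3%. A fit of cluster 8 alone, added after these values were seen, gave −1.60 ± 0.30 with the block in mesentery (edgeR adjusted p = 0.00212; 0.755% of 7286 genes called). That call was also lost without the run B library of mesentery on chow (−1.89, adjusted p = 0.114) and without that of mesentery on high fat diet (−1.16, adjusted p = 0.406). In adipose tissue the blocked value was −0.68 ± 0.28 in cluster 8 and −0.80 ± 0.28 in all arterial-like cells (adjusted p = 1.0 and 0.841). The difference between the tissues was itself tested as an interaction and gave −0.90 ± 0.40 in arterial-like cells (adjusted p = 1.0), so a larger fall in mesentery than in adipose was not shown. In cluster 8 of adipose tissue 0.124% of genes were called.

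**Figure D3:**
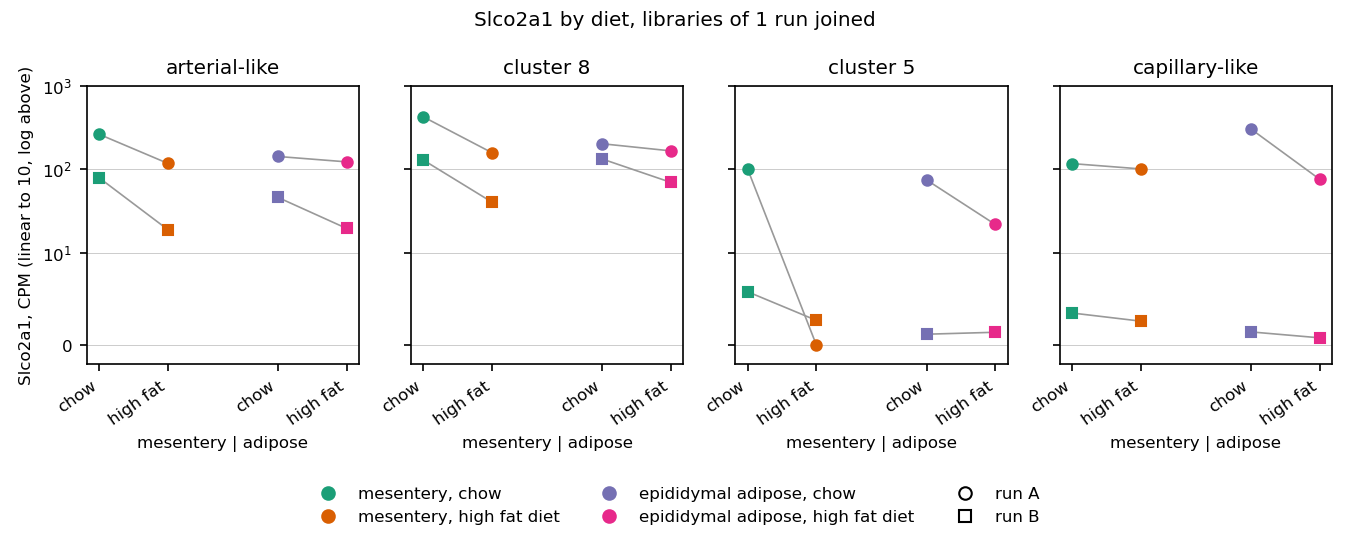
Slco2a1 level on chow and on high fat diet in arterial-like cells, cluster 8, cluster 5 and capillary-like cells; the y axis is CPM, linear up to 10 and logarithmic above, each line joins the 2 diets of 1 run and tissue, circles are run A and squares run B. In arterial-like cells all 4 lines fall from chow to high fat diet, in mesentery of run A from 264 to 118 CPM, with run B going from 79.4 to 18.9 CPM.

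Diet in adipose tissue called none of the members by edgeR, with or without the block, and 0.0% of genes without the block in each of the 5 sets. Unadjusted p was under 0.05 in 3 of 26 tests without the block and in 10 of 26 with it, and the lowest blocked adjusted p was 0.394. Over all genes, in the order of sets given for mesentery, 120, 27, 100, 77 and 97 had such an unadjusted p without the block. With the block the counts were 511, 268, 393, 259 and 322. With the block, 0.0522% of genes were called in all endothelial, 0.299% in arterial-like, 1.21% in capillary-like, 0.079% in venous-like and 0.0% in lymphatic-like cells. DESeq2 and limma-voom called none without the block. DESeq2 with the block called Hpgd (in edgeR, −2.63 ± 0.49 in all endothelial cells). Over all genes DESeq2 with the block called 26 in all endothelial cells. Of the 927 endothelial Hpgd UMIs in adipose on chow of run B, 346 were in the 37 cells of cluster 22. In adipose on high fat diet that cluster had 12 cells in run A and 1 in run B. Cluster 9 held 234 of these 927 UMIs in 649 cells of adipose on chow of run B, and had 2 cells on high fat diet of that run. The part of this makeup in the Hpgd difference was not tested. The interaction of tissue and diet called none either, with 0 of 26 unadjusted p under 0.05 without the block, 5 with it, a lowest blocked adjusted p of 0.386, and none by DESeq2 or limma-voom. Of all genes, the blocked interaction called 0.0111% in arterial-like, 0.0389% in capillary-like and 0.0% in the other 3 sets. Its unadjusted p was under 0.05 for 88, 6, 7, 54 and 376 genes without the block, in the order of sets given for mesentery. With the block the counts were 514, 203, 85, 285 and 882.

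The tissues differed for 1 member on chow: Ptger4 in lymphatic-like cells was higher in mesentery than in adipose tissue (edgeR without the block; 1.89% of 9151 genes were called in that set and 0.0% in the other 4). Unadjusted p was under 0.05 in 3 of 26 tests, and in 13 with the block. Over all genes, in the order of sets given for diet, 512, 61, 47, 354 and 1032 had such an unadjusted p without the block. With the block the counts were 1484, 578, 229, 931 and 1837. DESeq2 also called Ptger4 in lymphatic-like cells and limma-voom called no member. Over all genes of that set DESeq2 called 287 and limma-voom 21. With the run as a block Ptgs1 was called too, also higher in mesentery; 9.22% of genes were called in that set and 6.21% were higher. The blocked share was 0.403% in all endothelial, 0.797% in arterial-like, 0.253% in capillary-like and 1.55% in venous-like cells, without a member among them. On high fat diet, mesentery against adipose called none of the members, with 2 of 26 unadjusted p under 0.05 without the block and 4 with it, and a lowest blocked adjusted p of 0.356. DESeq2 and limma-voom called none on high fat diet. The blocked fit called 0.144% of genes in arterial-like, 0.126% in capillary-like, 0.0691% in venous-like, 0.109% in lymphatic-like and 0.0% in all endothelial cells. Unadjusted p on high fat diet was under 0.05 for 82, 32, 29, 126 and 231 genes without the block, in the order of sets given for diet. With the block the counts were 250, 288, 205, 330 and 520.

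Lymphatic-like Ptger4 was 48.0 and 96.0 CPM in mesentery on chow and 0 and 3.83 CPM in adipose on chow, from 474 and 3 UMIs. The ratio was 48.4 (95% counting interval 16.5 to 236.0) and the fitted difference 5.31 ± 0.96 (log2, SE; adjusted p = 0.0377), or 5.31 ± 0.54 with the block (adjusted p = 0.000107). All 3 adipose UMIs were in run B. Without that library the value was 9.79 (adjusted p = 0.167; 9.15 and 0.009 with the block), where adipose on chow was at 0 and the size depends on the prior count. The call without the block was also lost without the run A library of adipose on chow (4.31, adjusted p = 0.236), and without that of run A (5.70, 0.0542) or run B (4.69, 0.257) of mesentery on chow. With the block it held in each fit that left out 1 library. Mesentery on high fat diet, at 6.90 and 15.8 CPM, lay below both mesentery chow libraries, with a blocked difference of −2.67 ± 0.36 (adjusted p = 0.0017; −2.74 and adjusted p = 0.234 without the block). The counts were 474 against 25, a ratio of 8.41 (5.62 to 13.1). The groups did not overlap in these comparisons, but the share of all genes for which this holds was not counted. Within a run and diet, Ptger4 was higher in mesentery in 4 of 4 pairs, as were 10.6% of all genes compared in this class.

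Lymphatic-like Ptgs1 had smaller differences in the same directions. Its levels were 37.3 and 63.05 in mesentery on chow, 8.15 and 38.4 in mesentery on high fat diet, 7.53 and 17.9 in adipose on chow and 10.6 and 18.5 in adipose on high fat diet (CPM). Mesentery on chow lay above both adipose libraries on chow, and overlapped mesentery on high fat diet across the runs but not within a run. The share of all genes with such an order was not counted. Mesentery on chow exceeded adipose on chow by 2.04 ± 0.38 with the block (log2, SE; edgeR adjusted p = 0.00454; 0.265 without), a count ratio of 4.65 (2.99 to 7.62). The blocked diet difference in mesentery was −1.29 ± 0.32 (adjusted p = 0.0355; 0.735 without), a ratio of 3.01 (2.21 to 4.18). That diet value was −0.77 (adjusted p = 0.279) without mesentery on high fat diet of run A, −1.01 (0.0784) without mesentery on chow of run A, −1.30 (0.0598) without adipose on chow of run A and −1.30 (0.0615) without that of run B. The tissue value without adipose on chow of run B was 2.00 (adjusted p = 0.147).

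The lymphatic-like Ptger4 difference moved with cluster 14, which was a cluster of the mesentery. Its 541 cells were led by Marco, Bmp2, C3 and Msr1 and made up 23.9% and 55.1% of lymphatic-like cells in mesentery on chow, 7.14% and 1.52% in mesentery on high fat diet and 0% in both adipose groups. Ptger4 in cluster 14 was 117 and 132 in mesentery on chow and 47.7 in mesentery on high fat diet (run A only) (CPM), from 459 UMIs. Cluster 3, led by Reln, Ccl21a and Lyve1, held 2 UMIs of Ptger4 in all 8 libraries together. Cluster 11, led by Spp1, Nts and Ackr4, held 5.11 and 40.5 in mesentery on chow, 0 and 26.98 in mesentery on high fat diet, 0 and 11.9 in adipose on chow and 0 and 8.44 in adipose on high fat diet (CPM).

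Within cluster 14 the diet difference in Ptger4 was −1.33 (log2; edgeR adjusted p = 0.936), with 1 high fat diet library of 31 cells. Where the clustering was run at resolution 2.0, with doublets kept or with a mitochondrial limit of 20%, the cells of cluster 14 left the lymphatic-like class, where Ptger4 then had too few counts to be tested. Marco and Msr1 encode scavenger receptors also known from macrophages. The 11 macrophage markers, which hold neither, summed to 176.5 to 236 CPM in cluster 14 and to 155.5 to 349.9 CPM in cluster 3. Ptgs1 in cluster 14 was 74.8 and 51 in mesentery on chow and 23.9 in mesentery on high fat diet (run A only) (CPM), and in cluster 11 45.98 and 216 in mesentery on chow, 18.8 and 111 in mesentery on high fat diet, 45.2 and 43.5 in adipose on chow and 44.5 and 42.2 in adipose on high fat diet (CPM). Cluster 3 held 1.25 to 5.64 CPM. In a fit of cluster 11 alone the blocked differences were 1.79 ± 0.52 between tissues on chow (adjusted p = 0.104) and −1.16 ± 0.44 for diet in mesentery (adjusted p = 0.346), so neither was called there (1.59% and 0.704% of genes were).

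**Figure D4:**
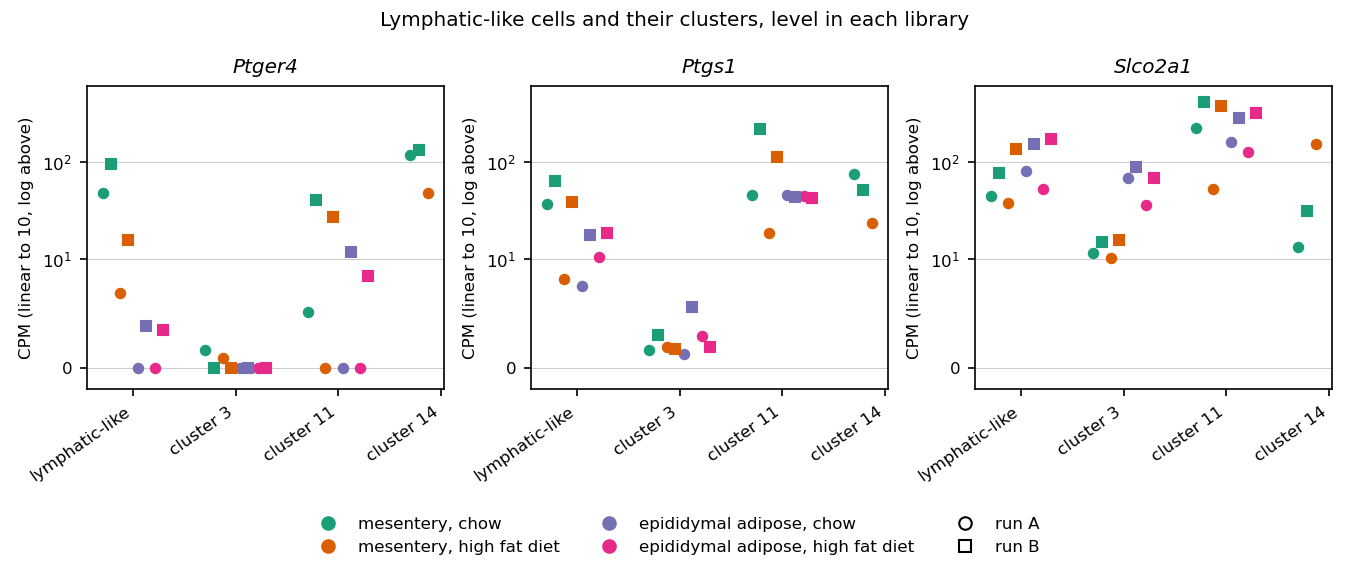
Level of Ptger4, Ptgs1 and Slco2a1 in lymphatic-like cells and in their clusters 3, 11 and 14; the y axis is CPM, linear up to 10 and logarithmic above, the colour is the group, circles are run A and squares run B. Ptger4 is high in cluster 14 (117, 131.9 and 47.7 CPM) and near 0 in cluster 3, and Slco2a1 in cluster 3 is higher in the 4 adipose libraries than in the 4 mesentery libraries.

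Slco2a1 differed between the tissues in the opposite direction within cluster 3. Its level there was 11.8 and 14.9 in mesentery on chow, 10.3 and 15.8 in mesentery on high fat diet, 67.7 and 88.4 in adipose on chow and 36.1 and 68.5 in adipose on high fat diet (CPM), and the highest mesentery library lay below the lowest adipose library. The share of all genes with such a gap was not counted. In a fit of this cluster added after the values were seen, the blocked difference of mesentery from adipose was −2.55 ± 0.35 on chow (edgeR adjusted p = 2.13e-05; 2.36% of 8019 genes called) and −1.97 ± 0.36 on high fat diet (adjusted p = 0.00477; 0.387% called). Without the block the values were −2.52 ± 0.43 and −2.02 ± 0.43 (adjusted p = 0.19 and 1.0). The counts were 101 in adipose and 17 in mesentery on chow, a ratio of 5.65 (3.36 to 10.1), and 60 and 20 on high fat diet, a ratio of 4.07 (2.42 to 7.13). Cluster 11 held more Slco2a1, at 225 and 415 in mesentery on chow, 53.1 and 374 in mesentery on high fat diet, 158 and 285 in adipose on chow and 127 and 321 in adipose on high fat diet (CPM), with tissues that overlapped.

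The other 46 genes of the pathway were grouped in 5 lists, and each was tested in the same 5 sets and 5 comparisons. Phospholipases A2 (11 of 12 genes in the files) gave 3 higher and 1 lower call in 95 tests with the block and none without it; the calls were in lymphatic-like cells (9.22% of genes called between tissues on chow, 6.2% for diet in mesentery) and venous-like cells (1.55% between tissues on chow). Leukotriene and lipoxygenase genes gave 1 higher and 1 lower call in 130 tests with the block, and 1 higher call without it. The 10 other prostanoid synthases (150 tests), the 5 other breakdown and transport genes (95 tests) and the 9 other receptors (75 tests) gave no call in edgeR with or without the block. Their unadjusted p was under 0.05 in 2, 0 and 0 of those tests without the block and in 8, 9 and 6 with it. The counts over all genes are given above with each comparison.

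The pathway genes called in these sets were Ltc4s, Pla2g7 and Pla2g4a. Ltc4s, the synthase of leukotriene C4, was 139 and 325 in mesentery on chow, 38.9 and 27.1 in mesentery on high fat diet, 33.3 and 20.4 in adipose on chow and 19.99 and 15 in adipose on high fat diet (CPM) in lymphatic-like cells and 326 and 461 in mesentery on chow and 186 in mesentery on high fat diet (run A only) (CPM) in cluster 14. Its tissue difference on chow was 3.1 ± 0.51 (log2, SE; edgeR adjusted p = 0.0291 without the block), and its blocked diet difference in mesentery −2.73 ± 0.41 (adjusted p = 0.00248). In cluster 3 alone the tissue value was −0.78 and the diet value 0.36, so both directions turned when the other clusters were left out.

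Pla2g7, the platelet-activating factor acetylhydrolase, had 559 UMIs in lymphatic-like cells of mesentery on chow and 0 in adipose on chow, at least 57.1-fold higher by a floor of 3 counts over the group (blocked adjusted p = 0.000208). In mesentery the diet difference was −3.58 ± 0.47 with the block (adjusted p = 0.002). It was 40.3 and 165 in mesentery on chow and 9.54 in mesentery on high fat diet (run A only) (CPM) in cluster 14. In venous-like cells on chow, Pla2g7 and the cytosolic phospholipase Pla2g4a were higher in mesentery with the block, by 2.16 ± 0.45 (adjusted p = 0.0245) and 2.17 ± 0.50 (adjusted p = 0.0411), where 1.55% of 10129 genes were called. Within cluster 7 alone, which made up most venous-like cells of mesentery on chow and few of adipose on chow, the blocked values were 0.10 and −0.07, with adipose on chow represented by 1 library of 29 cells that held 12 and 6 UMIs of the 2 genes. In the added fits of single clusters with the block, the receptor regulator Ptgfrn in cluster 3 was lower on high fat diet in mesentery (−0.99 ± 0.21, adjusted p = 0.00427; 3.9% of genes called) and higher in mesentery than adipose on chow (1.04 ± 0.21, adjusted p = 0.00353). Mgst3, a microsomal glutathione transferase, was lower in mesentery than adipose on high fat diet in cluster 8 (−1.46 ± 0.34, adjusted p = 0.0405; 0.357% called).

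The leading genes of the lists fell in several cell classes. Alox12, a 12-lipoxygenase, was measured in arterial-like cells at 31.6 and 104 in mesentery on chow, 15.7 and 139.8 in mesentery on high fat diet, 20.4 and 71.5 in adipose on chow and 35.1 and 88.7 in adipose on high fat diet (CPM). Cysltr1, a receptor for cysteinyl leukotrienes, was measured in venous-like cluster 6 at 30.1 and 286 in mesentery on chow, 104 and 193 in mesentery on high fat diet, 72.3 and 144 in adipose on chow and 107 and 248 in adipose on high fat diet (CPM). Slco3a1, a related transporter, and Ptgfrn, a negative regulator of the prostaglandin F receptor, were highest in lymphatic-like cells, with means of 207 CPM ± 52.5 and 99.1 CPM ± 18.7 (SD, n = 8 libraries). Abcc4, which exports prostaglandins, had its highest mean in venous-like cells, 48.9 CPM ± 11.6 (SD, n = 8). The other leading genes were Mgst3 (512 CPM), Ltc4s (201 CPM), Prxl2b (178 CPM), Pla2g12a (129.5 CPM), Ptgr2 (69.3 CPM) and Ptger3 (55.3 CPM) in adipocyte-like cells. Macrophage-like cells had the highest mean of Akr1b3 (156 CPM), Pla2g15 (74.9 CPM) and Ptgir (26.2 CPM), mural-like cells of Ptges3 (239 CPM) and neutrophil-like cells of Pla2g7 (546 CPM, 1 library).

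The genes with the most similar pattern to each member were ranked by Pearson's r of log2(CPM + 1) over 66 class-by-library profiles, among 9187 genes. These values describe profiles that share libraries and depth. Ptgs1 was closest to Vcam1 (0.738), Cpd (0.709) and Procr (0.706), and Slco2a1 to Lepr (0.856), Itgb4 (0.856) and Tspan5 (0.796). Vcam1 and Lepr were among the venous markers used for naming. Ptgs2 was closest to Il6 (0.816), Smim41 (0.798) and Sphk1 (0.796), Ptgis to Penk (0.841), Efemp1 (0.822) and Itgbl1 (0.808), and Ptges had Scn7a (0.956) and Hoxc6 (0.95) among its closest genes. Alox5ap was closest to Cd300ld (0.863), Clec4a3 (0.858) and Gm21188 (0.857), and Hpgd to Emilin2 (0.717), Pid1 (0.716) and Pygl (0.702). Ptger4 had the weakest partners: Irf7 (0.592), Dnaja1 (0.483) and AW112010 (0.46).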

How the data were processed

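Raw UMI counts of every gene in each barcode were deposited by the authors. Software version 3.0.2 is named for run A and Cell Ranger 5.0.0 for run B, per the file headers. Build mm10 and Seurat 4.3.0 are named in the submitters' processing notes. The 8 genes and all lists were chosen with earlier results of these data known.

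Barcodes with at least 500 UMIs, 300 genes and at most 10% mitochondrial counts were kept (23970 of 27944). Scrublet in scanpy 1.11.5 marked 52 (0.22%) with its automatic threshold, so a threshold set by the loading of each library was used, which removed 857 (3.58%). Cells were clustered (leidenalg 0.10.2, resolution 1.0, 2000 variable genes without the 54 genes of interest, 30 components, 20 neighbours) into 36 clusters, 22 of them endothelial. A class name needed 3 raised markers and no leading gene of another class.

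CPM is the summed count of a gene over the cells of a set in a library, per 1000000 UMIs of those cells, for sets of at least 20 cells. Diets and tissues were compared on counts summed per library with edgeR 4.0.16 (TMM, filterByExpr, quasi-likelihood test, all 4 groups in 1 fit, Benjamini-Hochberg over all genes of the set). DESeq2 1.42.0, limma 3.58.1 (voom), other size factors, no filter, other clusterings, left-out libraries and the run as a block were alternatives. The labels describe runs A and B as repeats of the whole experiment, and libraries of the same run deviated together: over 6 pairs of groups the correlations were 0.57 to 0.75 in all endothelial, 0.46 to 0.58 in arterial-like, 0.27 to 0.33 in capillary-like, 0.43 to 0.61 in venous-like and 0.59 to 0.65 in lymphatic-like cells. The fits were run on simulated counts drawn from the means of all endothelial cells. The smaller class and cluster sets were not simulated, so this does not check the calls there.

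Each member is described in the class of its highest mean. Members called in edgeR with or without the block are given with full statistics and the others by counts; pathway genes are named where called or among the 3 highest of a list. A few uncalled values were added after they were seen. Coordinates are from GENCODE vM21 and start-site sequences from RefSeq. Reads of the overlapping genes named beside the coordinates may not be separable. Some leading or similar genes are not reported here.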

Additional observations from a re-analysis of the deposited data

How the results depend on the processing

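The count of members called for diet in mesentery was 0. It was 3 with the replicate block, 1 with DESeq2, 2 with no filter on low counts, 4 with the block and DESeq2, 3 with the block and limma-voom, 4 at clustering resolution 0.5 with the block, 1 at resolution 2.0 with the block (Slco2a1), and 0 to 4 when a library was left out with or without the block. For diet in adipose it was 0, and 1 (Hpgd) with the block and DESeq2, and 0 to 1 when a library was left out. For tissue on chow it was 1, against 2 with the replicate block, 0 with limma-voom, 4 with no filter, 3 with the block and DESeq2, 2 with the block and limma-voom, 4 at resolution 0.5 with the block, 0 at resolution 2.0, 0 with doublets kept, 0 with a mitochondrial limit of 20%, and 0 to 5 when a library was left out. In the last 3 settings without the block, the cells of cluster 14 were no longer in the lymphatic-like class, and Ptger4 was not tested there. Tissue on high fat diet and the interaction stayed at 0 members in all alternatives run, the replicate block included. The calls over all genes moved with the setting as well. In lymphatic-like cells, diet in mesentery called 0 genes in the main fit, 119 with DESeq2, 11 with limma-voom and 422 with no filter. The block gave 567, or 309 with DESeq2 and 628 with limma-voom. Tissue on chow called 173, 287, 21, 678, 844, 543 and 787 genes there, in the same order. All mean class levels moved by less than 1 SD between libraries under other clusterings and filters and when a library was left out.

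Ltc4s in lymphatic-like cells changed direction where cluster 14 was outside the class. Its tissue difference on chow was −0.28 at resolution 2.0 and −0.22 there with the replicate block, −1.01 with doublets kept, −1.14 at the 20% limit and −0.78 in cluster 3 alone, with and without the block. Its diet difference in mesentery was 0.45 with doublets kept, 0.54 at the 20% limit, and 0.36 and 0.33 in cluster 3 alone without and with the block. In cluster 7 alone, the venous-like tissue difference on chow was −0.34 for Pla2g7 without the block and −0.07 for Pla2g4a with it, with 1 adipose library of 29 cells. The cause was not tested beyond this change in the cells of each class. Depth limited run A: its capillary-like sets held 34 to 138 cells per library, against 837 to 1979 in run B.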

Other observations

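Some values of the 8 genes belong to no comparison above. Cluster 31, venous-like cells led by Glycam1 and Madcam1, held 323 and 382 CPM of Slco2a1 in the 2 libraries with enough cells. Cluster 22 held 191 to 503 CPM of Slco2a1 in 3 libraries. In cluster 5 of the mesentery, 4 UMIs of Ptger4 on chow stood against 62 on high fat diet, which is a ratio of 5.81 (2.16 to 22, counting error only), and its blocked difference of 2.58 ± 0.70 was not called by edgeR (adjusted p = 0.152). In cluster 8 of adipose tissue, Ptgs1 was 71.6 and 32.4 CPM on chow and 6.17 and 6.01 CPM on high fat diet, with a blocked difference of −2.61 ± 0.59 that was not called (adjusted p = 0.0563). Mural-like cells held 407 and 208 CPM of Ptgis in the adipose libraries of run A and 0.79 and 0 CPM in those of run B, and 259 and 227 CPM of Ptgs2 against 0 in run B. These uncalled values were chosen after they were seen.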
